A study of Mus musculus with 4 samples.

Results

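Dcn, Bgn, Lum, Fmod, Ogn, Aspn, Prelp, Dpt, Vcan and Podn encode small leucine-rich proteoglycans of the extracellular matrix together with a pair of related matrix proteins, dermatopontin (Dpt) and versican (Vcan). The 10 genes were chosen by symbol from the 15424 genes with a deposited value, and all 10 were found. They were measured by RNA sequencing of subcutaneous tumors in nude mice. The tumors were grown from allografted R728T1 cells, which the labels call non-SMCs from a mouse Rb/P53 model and list as small cell lung cancer, and carried either a knockdown of Taz (shTaz) or a control shRNA against luciferase (shLuc). R728T1 is 1 cell line, both groups share its Rb/P53 background, and neither the age of the mice nor the number of animals is stated. The labels list 2 samples per group, 4 in all, and the deposited table holds 1 column per group, so no value below has a replicate check and no test was possible.

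Small leucine-rich proteoglycans are secreted proteins whose curved chain of leucine-rich repeats binds collagen fibrils and, for several of them, growth factors such as TGF-beta. Decorin, biglycan and asporin belong to class I of the family, fibromodulin, lumican and PRELP to class II, osteoglycin (also called mimecan) to class III, and podocan to one of the non-canonical classes. In most tissues fibroblasts and related mesenchymal cells make them. Versican is a large chondroitin sulfate proteoglycan that binds hyaluronan, and dermatopontin is a small matrix protein that binds decorin.

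Most of these genes were lower in the shTaz tumors, above all the abundant Bgn and Fmod and the less abundant Dcn and Dpt. On the scale log2((shTaz FPKM + 1) / (shLuc FPKM + 1)), where FPKM is the authors' level per transcript length and mapped total, a difference of 1 is called 2-fold. By that measure 5 of the 10 genes (Dpt, Dcn, Bgn, Fmod and Prelp) were 2-fold lower and 0 were 2-fold higher. Among the 11650 genes averaging at least 1 FPKM over both columns, which include all 10, 3.25% were 2-fold lower and 3.96% were 2-fold higher. Lower by any amount were 7 of the 10 genes and 41.7% of all genes, and higher by any amount were 3 of the 10 and 58.3% of all genes. The median difference was -1.01 for the 10 genes and 0.12 for all genes. These genes were chosen with this contrast known, so the counts describe them and nothing is read from the comparison with all genes. The split over all genes, 461 higher and 379 lower, turned to 307 higher and 497 lower after median-ratio scaling of the columns, while of the 10 genes 0 were then higher and 6 lower, Podn being the added one.

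**Figure D1:**
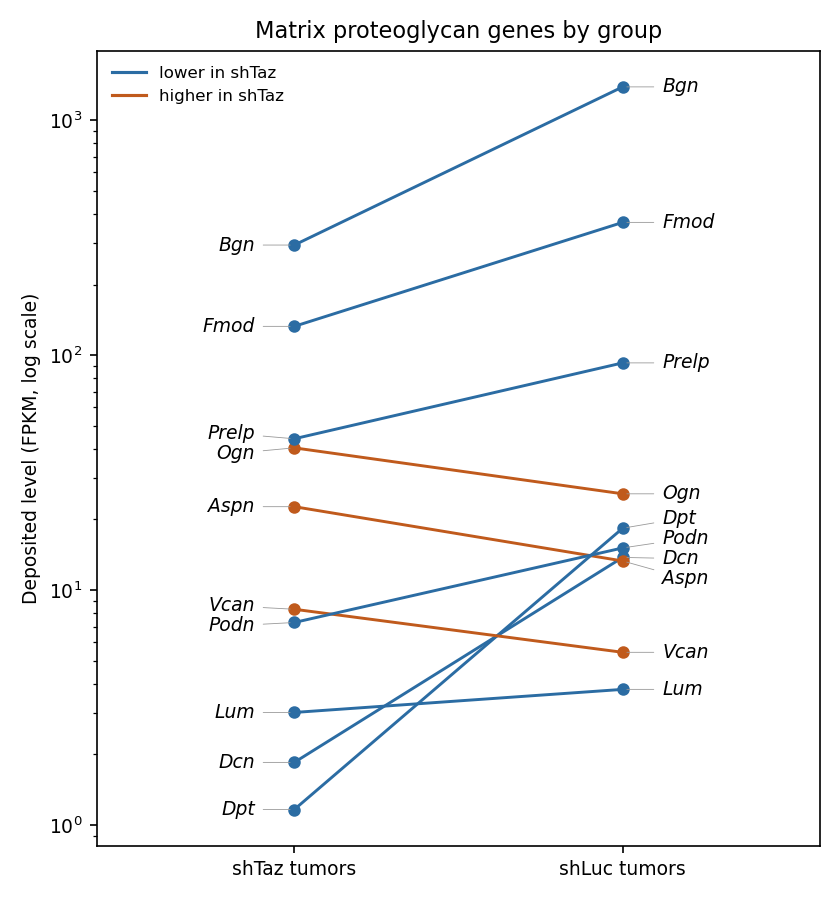
Deposited FPKM on a log scale (vertical) of the 10 genes in shTaz tumors and in shLuc tumors, with 1 point per gene and group and a line joining the points of a gene. The 7 blue lines are the genes lower in shTaz, from Bgn at 294 FPKM in shTaz and 1388 FPKM in shLuc to Lum at 3.02 and 3.78 FPKM, and the 3 orange lines are Ogn, Aspn and Vcan.

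The promoter sequences of the 2 most strongly differing genes that have one in the reference table, Dpt and Bgn, and of the higher Ogn and Aspn are shown so that genes of opposite direction can be compared. They are from RefSeq on GRCm38.p6 (the mm10 assembly), run from 250 bases before to 50 bases after the annotated start of transcription, and are written 5′ to 3′ on the strand of the gene. Capitals mark matches to GGAATG (the core bound by TEAD factors, the DNA-binding partners of TAZ), CAGCTG (an E-box) and TATAAA, searched on both strands. The motif TGANTCA (AP-1) was searched too, and neighbouring capitals in Dpt and Ogn are adjacent or overlapping matches.
Dpt promoter, chr1:164796413-164796712, plus strand: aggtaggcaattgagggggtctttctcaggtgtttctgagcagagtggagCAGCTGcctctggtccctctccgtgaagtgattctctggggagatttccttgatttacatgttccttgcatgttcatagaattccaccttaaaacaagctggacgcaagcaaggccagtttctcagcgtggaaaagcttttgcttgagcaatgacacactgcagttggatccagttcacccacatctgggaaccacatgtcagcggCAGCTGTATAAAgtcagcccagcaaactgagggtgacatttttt
Bgn promoter, chrX:73483351-73483650, plus strand: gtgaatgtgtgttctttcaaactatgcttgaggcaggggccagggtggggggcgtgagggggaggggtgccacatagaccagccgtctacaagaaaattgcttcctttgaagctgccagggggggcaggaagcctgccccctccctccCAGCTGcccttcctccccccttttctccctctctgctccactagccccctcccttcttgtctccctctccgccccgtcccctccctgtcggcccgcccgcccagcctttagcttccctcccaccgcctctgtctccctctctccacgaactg
Ogn promoter, chr13:49607765-49608064, plus strand: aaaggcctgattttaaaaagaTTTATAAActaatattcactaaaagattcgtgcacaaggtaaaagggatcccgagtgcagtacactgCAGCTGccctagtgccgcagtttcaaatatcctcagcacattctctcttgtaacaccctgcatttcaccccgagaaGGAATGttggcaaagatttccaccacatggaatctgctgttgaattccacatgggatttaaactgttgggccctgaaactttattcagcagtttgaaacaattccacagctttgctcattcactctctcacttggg
Aspn promoter, chr13:49544193-49544492, plus strand: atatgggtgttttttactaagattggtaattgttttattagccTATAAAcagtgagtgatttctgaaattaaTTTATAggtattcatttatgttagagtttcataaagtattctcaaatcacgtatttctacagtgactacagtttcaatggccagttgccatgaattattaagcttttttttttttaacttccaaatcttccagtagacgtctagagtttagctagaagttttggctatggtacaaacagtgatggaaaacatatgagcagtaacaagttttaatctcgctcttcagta

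The table held 9 promoters of 8 of the 10 genes, with both Dcn and Lum missing and Podn present with 2. GGAATG was found in 1 of the 9, that of Ogn, against 14.7% of the 32817 promoters in the table. CAGCTG was found in 4 of the 9, of Dpt, Bgn, Ogn and the second Podn promoter, against 16.3% of all. TATAAA was found in 3 of the 9, of Dpt, Ogn and Aspn, against 13.6% of all, and TGANTCA in 0 of the 9 against 7.81% of all. The promoter of Aspn had 31.0% GC, with only 1.28% of all promoters in the table lower, against 63.7% for Bgn and a median of 52.7%. A match is a string of letters and not a shown binding site, and the absence of one says only that these letters are not in this window.

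Among the class I genes of the 10, decorin and biglycan were lower and asporin was higher. Bgn (Entrez 12111, chromosome X, 73483602 to 73495933, plus strand, mm10), which encodes a collagen-binding proteoglycan that usually carries a pair of glycosaminoglycan chains, was at 294 FPKM in the shTaz tumors and 1388 FPKM in the shLuc tumors. It kept 21.2% of the control level, a difference of -2.23 on the log2 scale, and only 0.361% of all genes had a lower difference. Dcn (Entrez 13179, chromosome 10, 97479609 to 97518143, plus strand) was at 1.85 FPKM in shTaz and 13.8 FPKM in shLuc. Decorin binds type I collagen and limits the lateral growth of fibrils, and its level in shTaz was 13.4% of that in shLuc, a difference of -2.38. Aspn (Entrez 66695, chromosome 13, 49544443 to 49567565, plus strand), whose product binds collagen but carries no glycosaminoglycan chain, was at 22.7 FPKM in shTaz and 13.3 FPKM in shLuc. Its difference was 0.73, and 88.6% of all genes had a lower one.

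The class II genes among the 10 were all lower, by unequal amounts. Fmod (Entrez 14264, chromosome 1, 134037254 to 134048277, plus strand), which encodes fibromodulin, a keratan sulfate proteoglycan that guides collagen fibril maturation and crosslinking, was at 133 FPKM in shTaz and 368 FPKM in shLuc. Its level in shTaz was 36.1% of that in shLuc, a difference of -1.46. Prelp (Entrez 116847, chromosome 1, 133910304 to 133921414, minus strand) was at 44.1 FPKM in shTaz and 92.8 FPKM in shLuc, a difference of -1.06. PRELP binds collagen and, through its basic end, heparan sulfate, and its gene was just past the 2-fold difference. With quantile normalization its difference was -0.93, short of 2-fold. Lum (Entrez 17022, chromosome 10, 97565128 to 97572703, plus strand), which encodes lumican, the corneal keratan sulfate proteoglycan also found in skin, was at 3.02 FPKM in shTaz and 3.78 FPKM in shLuc. Its difference was -0.25, with 24.3% of all genes lower.

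Osteoglycin and podocan went in opposite directions. Ogn (Entrez 18295, chromosome 13, 49608046 to 49624501, plus strand), which encodes a fibril-binding proteoglycan first described in bone, was at 40.3 FPKM in shTaz and 25.7 FPKM in shLuc, a difference of 0.63. Podn (Entrez 242608, chromosome 4, 108014791 to 108096445, minus strand), a collagen-binding member with restraining effects on smooth muscle cell growth, was at 7.28 FPKM in shTaz and 15.1 FPKM in shLuc. Its level in shTaz was 48.1% of that in shLuc, but with the pseudocount of 1 the difference was -0.96, just short of 2-fold.

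Of the related matrix genes, dermatopontin was lower by the widest margin of the 10 and versican was higher. Dpt (Entrez 56429, chromosome 1, 164796644 to 164824266, plus strand) was at 1.16 FPKM in shTaz and 18.4 FPKM in shLuc. Its shTaz level was 6.34% of the shLuc level, 15.8-fold lower as a plain ratio, whereas the difference of -3.16 on the log2(FPKM + 1) scale understates this because the shTaz value is close to the pseudocount. Vcan (Entrez 13003, chromosome 13, 89655312 to 89742509, minus strand) was at 8.29 FPKM in shTaz and 5.44 FPKM in shLuc, a difference of 0.53 that 79.3% of all genes lay below.

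Ranks 1 to 4 of the levels were held by the same genes in both groups, and every rank from 5 to 10 changed hands. FPKM is per transcript length but leaves GC bias uncorrected, so these ranks describe the deposited levels only. Ranks 1 to 4 were those of Bgn, Fmod, Prelp and Ogn, in that order. Dpt had rank 10 in shTaz and rank 5 in shLuc, and Dcn rank 9 in shTaz and rank 7 in shLuc, so both stood lower among the 10 in shTaz. Aspn had rank 5 in shTaz and rank 8 in shLuc, and Vcan rank 6 in shTaz and rank 9 in shLuc. With the GC trend removed, the difference between the groups was 0.05 for Aspn and 0.10 for Vcan. In shLuc, Podn (15.1 FPKM), Dcn (13.8 FPKM) and Aspn (13.3 FPKM) were close, and without a spread their order cannot be separated. The same holds in shTaz for Prelp with Ogn and for Vcan with Podn.

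The summed level of the 10 genes was 556 FPKM in shTaz and 1944 FPKM in shLuc, so that shTaz kept 28.6%. Bgn alone made up 53.0% of the sum in shTaz and 71.4% in shLuc. Without Bgn the sum was 261 FPKM in shTaz and 556 FPKM in shLuc, or 47.0%, and without Bgn and Fmod 129 and 188 FPKM, or 68.4%. The 7 lower genes summed to 485 FPKM in shTaz and 1899 FPKM in shLuc, and the 3 higher ones to 71.3 and 44.5 FPKM.

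The difference followed the base composition of the transcript across all genes, and this bore on the 10 genes unequally. Genes were ranked by GC content and split into 10 even groups. The 1109 genes of the first group, at 31.2% to 41.8% GC, had a median difference of 0.56, and those of group 10, at 58.1% to 75.9%, had -0.38. Aspn (34.3% GC) and Ogn (36.3%) were in the first group and Vcan (43.7%) in the second, whose median was 0.46. With the GC trend removed by a lowess curve, the difference was 0.05 for Aspn, -0.0019 for Ogn and 0.10 for Vcan, which put all 3 close to other genes of like composition. Dcn was in the first group too, at 37.4% GC, and with the trend removed its difference was -2.98, wider than before. The differences of Bgn (-2.31), Fmod (-1.42), Prelp (-1.01) and Dpt (-3.38) kept their size, Lum went to -0.75 and Podn to -0.79. After this correction 5 genes were 2-fold lower, again Dpt, Dcn, Bgn, Fmod and Prelp.

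**Figure D2:**
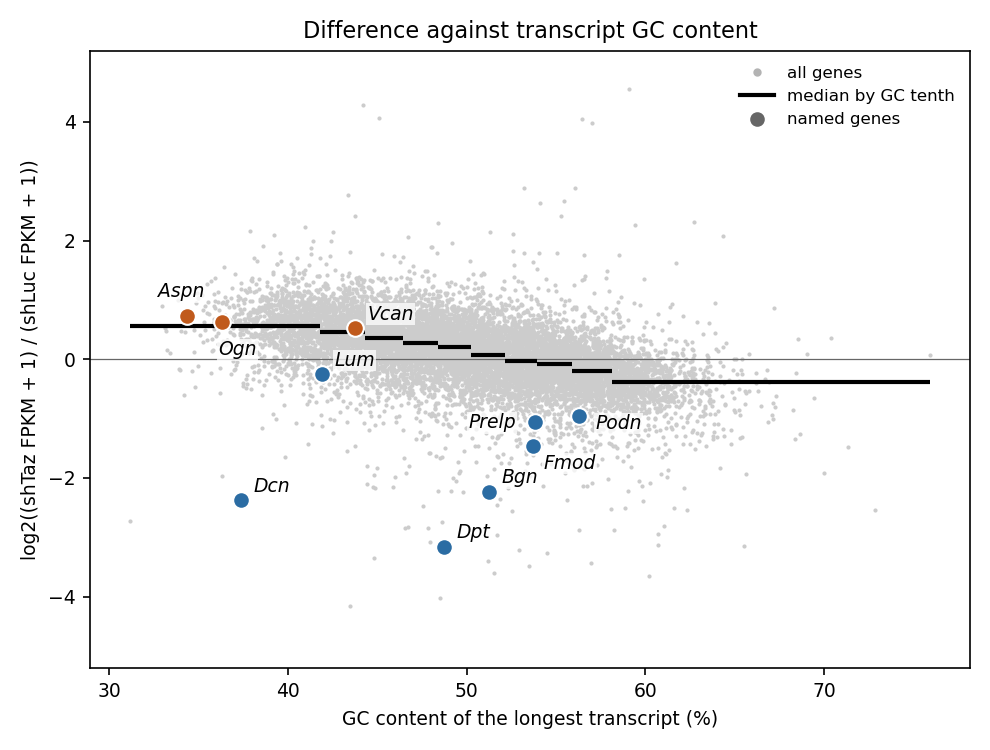
Difference between shTaz and shLuc (vertical, log2 with a pseudocount of 1 FPKM) against the GC content of the longest transcript (horizontal, percent) for all genes averaging at least 1 FPKM with a known transcript (grey), with the median of each of 10 GC groups (black bars) and the 10 genes in blue (lower) or orange (higher). Aspn, Ogn and Vcan sit near the median bars, and Dcn, Dpt, Bgn, Fmod, Prelp, Podn and Lum sit below them. A further 7 genes lie outside the vertical range.

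**Figure D3:**
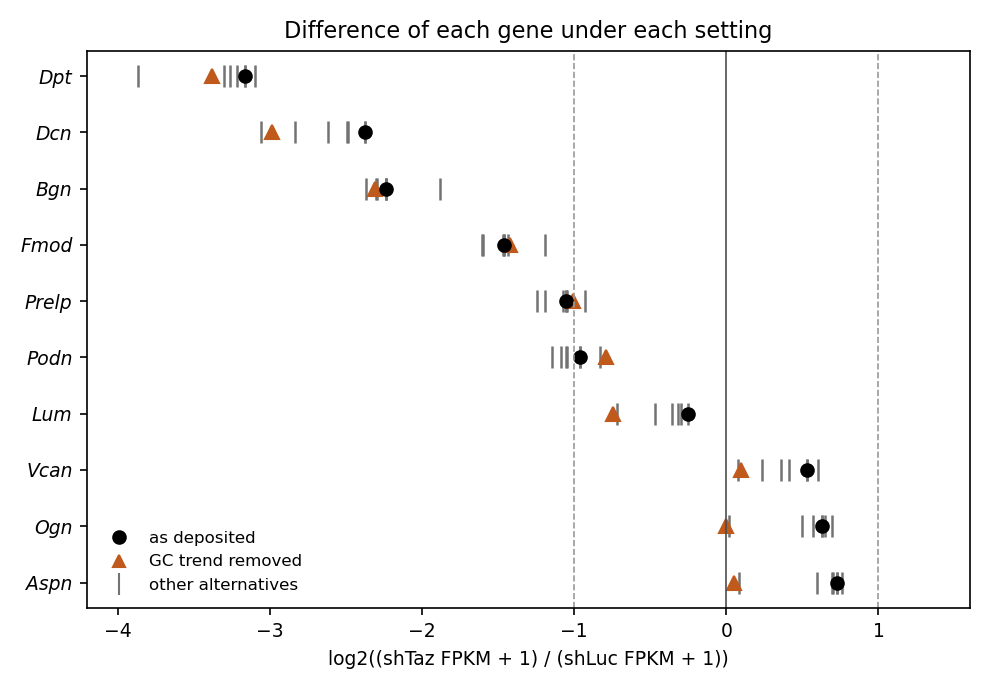
Difference of each gene (horizontal, log2 of shTaz over shLuc) as deposited (black circles), with the GC trend removed (orange triangles) and under the other 7 alternatives (grey ticks), with dashed lines at the 2-fold difference. Dpt, Dcn, Bgn and Fmod stay beyond the 2-fold line in all 9 settings, and Prelp in 8 of 9.

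Many genes of the family lie in clusters on the mouse chromosomes, and the clusters differed in direction as deposited. Along chromosome 13 lie Ecm2, Aspn, Omd and Ogn, separated by gaps of 11.7, 14.9 and 15.2 kb. All 4 were higher in shTaz as deposited. Omd, which encodes osteomodulin, was at 3.49 FPKM in shTaz and 2.75 FPKM in shLuc. Ecm2, which averaged less than 1 FPKM, was at 0.546 FPKM in shTaz and 0.391 FPKM in shLuc. Their transcripts are rich in AT, and with the GC trend removed Omd was at -0.37, beside the values near 0 of Aspn and Ogn. On chromosome 1 Prelp and Fmod, 116 kb apart, were both 2-fold lower, whereas Optc, which encodes opticin and lies 2.30 kb from Prelp, was at 2.24 FPKM in shTaz and 2.10 FPKM in shLuc. On chromosome 10 Dcn and Lum are 47.0 kb apart. Dcn differed by -2.38 and Lum by -0.25, or by -2.98 and -0.75 with the GC trend removed, and the next genes in that cluster, Kera and Epyc, were not among the listed genes. Vcan lies 43.7 kb from Hapln1, the gene of a link protein that ties it to hyaluronan, which was listed at 0 in shTaz and at 0.0374 FPKM in shLuc.

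The whole chromosome 13 cluster lies within Cenpp (chromosome 13, 49464023 to 49652785, minus strand), a kinetochore protein gene transcribed from the opposite strand. Cenpp was at 8.77 FPKM in shTaz and 2.25 FPKM in shLuc, a difference of 1.59, or 1.07 with the GC trend removed. In the GENCODE annotation the exons of Cenpp shared 7 of 2354 exon bases of Aspn and 0 of 2566 of Ogn. The strand setting is not given in the sources used here, so reads from overlapping opposite strands cannot be told apart, and the part of Cenpp in the values of Aspn and Ogn was not tested. Prelp shared 350 of its 3615 exon bases with an antisense gene, Gm15851. The annotated span of Podn runs into Scp2, with 0 shared exon bases.

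**Figure D4:**
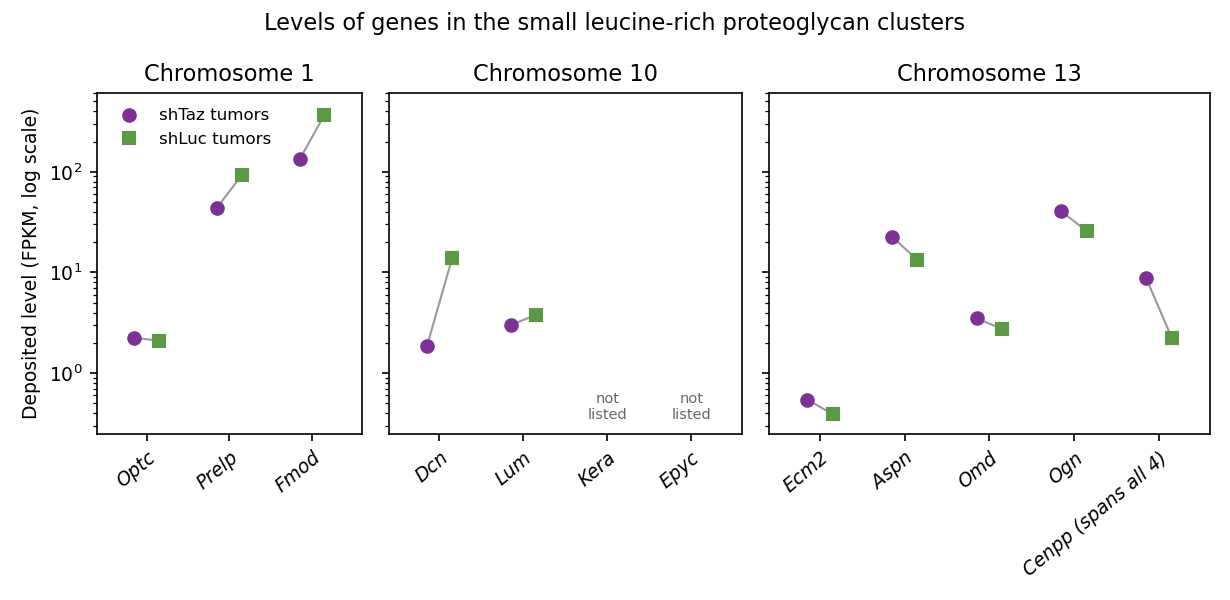
Deposited FPKM on a log scale (vertical) of genes in the 3 clusters, in chromosomal order from left to right within each panel, with shTaz tumors as circles left of shLuc tumors as squares. Cenpp is drawn last because it spans the other 4 genes of its panel. Aspn, Omd, Ogn and Ecm2 are higher in shTaz, and Prelp, Fmod and Dcn are lower.

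As deposited, none of the other listed genes of the small leucine-rich family was lower, but Omd was at -0.37 with the GC trend removed. Of 10 further family genes 8 were listed and 4 averaged at least 1 FPKM, and of these 0 were 2-fold lower and 1 was 2-fold higher, with a median of 0.28. The higher one was Podnl1, the closest relative of Podn, at 14.5 FPKM in shTaz and 6.003 FPKM in shLuc, so that this pair of related genes lay on opposite sides (1.14 for Podnl1 and -0.96 for Podn). Among the hyalectans and link proteins, the relatives and partners of versican, Hapln3 was listed at 0 in shTaz and at 2.58 FPKM in shLuc, while Acan, the cartilage proteoglycan aggrecan, was at 63.9 FPKM in shTaz and 52.9 FPKM in shLuc. Of 8 measured hyaluronan genes only Has2, the main hyaluronan synthase of mesenchymal cells, was 2-fold different, at 5.37 FPKM in shTaz and 1.56 FPKM in shLuc. With the GC trend removed the difference of Has2 was 0.78, short of 2-fold. Among other matrix and secretory proteoglycans and related matrix proteins Smoc2 was at 0.839 FPKM in shTaz and 4.77 FPKM in shLuc. Esm1, an endothelial proteoglycan gene, was at 3.72 FPKM in shTaz and 0.711 FPKM in shLuc.

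The genes of the enzymes that build chondroitin and dermatan sulfate chains lay within 2-fold, and those for keratan sulfate lay on both sides. Of 22 genes for the linker and for chondroitin or dermatan sulfate, 19 averaged at least 1 FPKM and 0 were 2-fold lower or higher, with a median of -0.09. The chain polymerizing factor gene Chpf was at 26.5 FPKM in shTaz and 42.8 FPKM in shLuc and its relative Chpf2 at 11.7 and 17.9 FPKM. These were the widest differences of the list as deposited. With the GC trend removed Chpf was at -0.40 and Chpf2 at -0.28, and they were no longer the widest. Of 6 keratan sulfate genes 1 was 2-fold lower, the galactosyltransferase gene B4galt4, at 1.34 FPKM in shTaz and 3.79 FPKM in shLuc. Short of 2-fold in the other direction were the chain-extending enzyme genes B3gnt2 (7.02 FPKM in shTaz and 3.37 FPKM in shLuc, a difference of 0.88) and B3gnt7 (5.28 FPKM in shTaz and 2.79 FPKM in shLuc, a difference of 0.73).

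Collagens and proteases that act beside these proteoglycans were lower in part. Of 14 genes of fibrillar, fibril-associated and type VI collagens 3 were 2-fold lower and 0 higher, with a median of -0.39. They were Col2a1 (5.40 FPKM in shTaz and 14.7 FPKM in shLuc), Col1a2 (138 and 334 FPKM) and Col6a2 (152 and 316 FPKM), and with the GC trend removed 1 remained. Of 8 measured proteases 1 was 2-fold lower, the stromelysin gene Mmp3, which cuts decorin and other matrix proteins, at 1.61 FPKM in shTaz and 10.5 FPKM in shLuc. Of 13 measured growth factors and receptors known to bind these proteoglycans 0 differed 2-fold. The widest were Bmp4 (39.9 FPKM in shTaz and 63.5 FPKM in shLuc) and Met (9.56 and 6.13 FPKM), and the list median was 0.04.

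**Figure D5:**
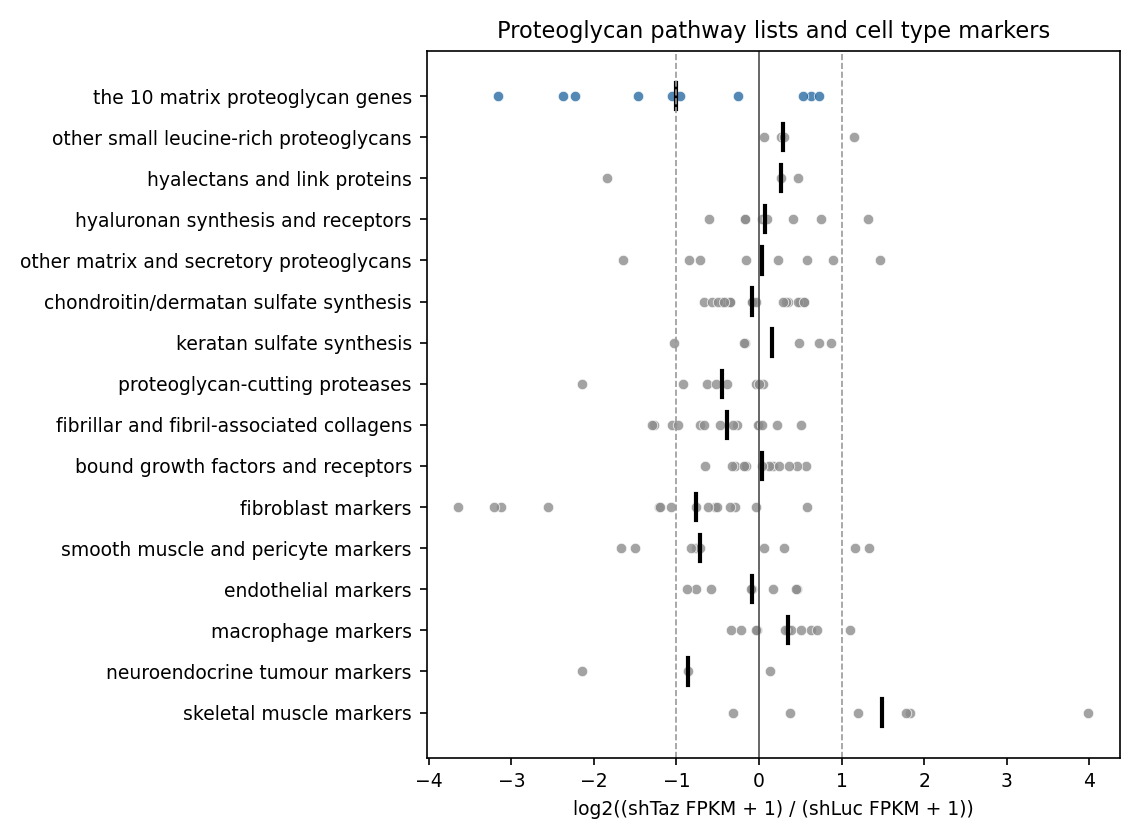
Difference (horizontal, log2 of shTaz over shLuc with a pseudocount of 1 FPKM) of each gene averaging at least 1 FPKM, by list, with the 10 genes in blue, other genes in grey, list medians as black bars and dashed lines at the 2-fold difference. The lowest single values are those of the fibroblast marker Clec3b (-3.65) and Sfrp2 (-3.21) and of Dpt (-3.16) among the 10 genes. The list medians are -1.01 for the 10 genes, -0.85 for the neuroendocrine and -0.77 for the fibroblast markers, and the skeletal muscle markers lie furthest to the right, with a median of 1.49.

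Most of the measured fibroblast markers were lower in shTaz. Of 17 markers 15 averaged at least 1 FPKM, 14 were lower by any amount, 7 were 2-fold lower and 0 were 2-fold higher. The median was -0.77. Of all genes 3.25% were 2-fold lower and 3.96% were 2-fold higher. The list was chosen with earlier results of these data known, so nothing is read from this comparison. The summed level of the 17 was 213 FPKM in shTaz and 356 FPKM in shLuc, and none was at 0 in either group. Clec3b, which encodes tetranectin, was at 0.335 FPKM in shTaz and 15.7 FPKM in shLuc, the Wnt modulator gene Sfrp2 at 1.05 and 17.9 FPKM, Igfbp6 at 0.561 and 12.6 FPKM and Twist2 at 0.983 and 10.6 FPKM. Cd34, Gsn and Ly6a lay within 2-fold, and Pdgfra was higher, at 13.5 FPKM in shTaz and 8.75 FPKM in shLuc. The part of the fibroblast markers in the lower proteoglycan levels was not tested. In bulk tumors fewer cells of a type and less RNA per cell cannot be told apart, and since graft and host are both mouse, neither can tumor cells and host stroma.

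The sequence of the shRNA is not stated, and the symbol Taz can stand for either of a pair of genes. Wwtr1, which encodes the Hippo coactivator TAZ, was at 15.1 FPKM in shTaz and 23.4 FPKM in shLuc. The gene listed as Taz, now named Tafazzin, was at 9.50 FPKM in shTaz and 13.7 FPKM in shLuc, and Yap1 at 12.0 and 8.59 FPKM. Of the neuroendocrine markers that define small cell lung cancer, Neurod1, Chga, Chgb and Calca were not among the listed genes, so the labelled cell type is not borne out by these, while Ncam1 was at 43.8 FPKM in shTaz and 39.8 FPKM in shLuc. The deposited FPKM values summed to 427921 in shTaz and 501728 in shLuc, and the sequencing depth is unknown.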

How the data were processed

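Tumor RNA from 4 samples, 2 shTaz and 2 shLuc, was sequenced. Trim Galore and TopHat with build mm10 were used, per the submitters' processing notes; versions, the FPKM program, annotation and strand setting are not given in the sources used here. The authors deposited FPKM values in 1 column per group, and the heading of a column is a label shared by the 2 samples of its group. Whether a column is a mean, a joint estimate or 1 library is not stated, so no SD, test or p-value is given. Multiplied by transcript length, the low values lay within 0.1 of a whole step for at most 28.2% of genes in shTaz and 25.2% in shLuc, so no read numbers were recovered and depth is unknown.

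Differences were computed with Python 3.11.15 as log2 ratios with a pseudocount of 1 FPKM, for genes averaging at least 1 FPKM, and the step was tested on simulated data. GC bias and very abundant RNAs are left uncorrected in FPKM. GC content and length came from the longest transcript in GENCODE M21 (mm10), which covered 95.1% of these genes and may differ from the transcript expressed. Gene positions are 1-based and from that annotation. The 10 genes and all lists were chosen with earlier results of these data known. Named were the 10 genes and, of each list, up to 4 genes with 2-fold differences, or else the 2 that differed most. Acan, Ncam1, Optc, Omd, Ecm2, Hapln1, B3gnt2, B3gnt7, Myh4, Mb, Hspg2, Srgn, Pdgfra, Cd34, Gsn, Ly6a, Scp2 and Cenpp were named after their values were seen. Alternatives were a 0.1 FPKM pseudocount, a minimum of 0 or 5 FPKM, median-ratio or quantile scaling, and removal of the GC trend, the length trend or both (lowess, span 0.3). Protein features were planned and not analysed here.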

Additional observations from a re-analysis of the deposited data

How the results depend on the processing

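No replicate could be left out and no paired analysis was possible because the table holds 1 column per group. The median difference of the 10 genes, -1.01 as deposited and with no filter, was -1.06 with a pseudocount of 0.1, -1.06 over the 9 that averaged at least 5 FPKM, -1.14 with median-ratio scaling, -0.99 after quantile normalization, -0.90 with the GC trend removed, -1.19 with the length trend removed and -0.94 with both removed. The count of genes 2-fold lower was 5 or 6 in all 9 settings, and that of genes 2-fold higher 0. The genes counted as lower were not always the same. Prelp was 2-fold lower in 8 of the 9 settings and Podn in 4. With quantile normalization Prelp was at -0.93 and Podn at -1.06. Ogn alone turned in sign, to -0.0019 with the GC trend removed, and it was 0.02 with both trends removed. Over all genes, 461 were 2-fold higher as deposited, against 996 with a pseudocount of 0.1, 307 with median-ratio scaling, 288 after quantile normalization, 166 without the GC trend, 297 with the length trend removed and 191 with both. The 2-fold lower genes numbered 379 as deposited, from 215 with a minimum of 5 FPKM, where 219 were higher, to 548 with a pseudocount of 0.1. The median of all genes moved from 0.12 as deposited to -0.00 with median-ratio scaling. With unknown depth and no replicates, no counting or biological error can be put on any value.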

Other observations

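Markers of other cell types were measured beside these genes. Of 9 smooth muscle and pericyte markers averaging at least 1 FPKM, 2 were 2-fold lower in shTaz and 2 higher, and the 11 in the list summed to 75.5 FPKM in shTaz and 97.1 FPKM in shLuc. The lower ones were Tagln, at 2.82 FPKM in shTaz and 11.1 FPKM in shLuc, and Notch3, at 0.918 FPKM in shTaz and 4.42 FPKM in shLuc. The higher ones were the pericyte gene Rgs5, at 12.0 FPKM in shTaz and 4.84 FPKM in shLuc, and Des, which skeletal muscle expresses too, at 3.004 FPKM in shTaz and 0.586 FPKM in shLuc. With the GC trend removed Rgs5 was at 0.64, short of 2-fold. Endothelial markers showed 0 of 8 with a 2-fold difference and summed to 101 FPKM in shTaz and 142 FPKM in shLuc. As deposited, Plvap (36.2 FPKM in shTaz and 67.2 FPKM in shLuc) and Cldn5 (10.3 FPKM in shTaz and 18.2 FPKM in shLuc) were the widest apart. With the GC trend removed Plvap was at -0.47 and Cldn5 at -0.37, and Plvap was no longer the widest. Among 11 macrophage markers 1 was 2-fold higher, the receptor kinase gene Mertk at 3.22 FPKM in shTaz and 0.969 FPKM in shLuc, but with the GC trend removed its difference was 0.85 and 0 were 2-fold higher. The macrophage sum was 4962 FPKM in shTaz and 5099 FPKM in shLuc. The 8 skeletal muscle markers summed to 60.2 FPKM in shTaz and 25.9 FPKM in shLuc, and 4 of the 6 that averaged at least 1 FPKM were 2-fold higher. Of these 4, Acta1 was at 14.9 FPKM in shTaz and listed at 0 in shLuc. The other members of the 4 were Mylpf (5.05 FPKM in shTaz and 0.706 FPKM in shLuc), Tnnt3 (8.004 FPKM in shTaz and 1.61 FPKM in shLuc) and Ckm (2.30 FPKM in shTaz and 0.436 FPKM in shLuc), and the low Myh4 and Mb were also listed at 0 in shLuc. Of 3 neuroendocrine markers averaging at least 1 FPKM, 1 was 2-fold lower, Uchl1 at 1.51 FPKM in shTaz and 10.1 FPKM in shLuc.

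A pair of other abundant proteoglycan genes lay short of 2-fold. Hspg2, which encodes perlecan of basement membranes, was at 77.8 FPKM in shTaz and 141 FPKM in shLuc, and its difference of -0.85 was -0.43 with the GC trend removed. Srgn, which encodes the granule proteoglycan serglycin of blood cells, was at 51.9 FPKM in shTaz and 27.4 FPKM in shLuc, and its difference of 0.90 was 0.44 with the GC trend removed. These were picked out after their values were seen.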
